A study of Rattus norvegicus with 22 samples.

Results

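The genes described are 10 of the innate sensing machinery, out of 19167 gene symbols on the array: the Toll-like receptors Tlr2, Tlr3, Tlr4, Tlr7 and Tlr9, the co-receptor Cd14, the adaptor Myd88, and the inflammasome genes Nlrp3, Casp1 and Pycard. They were chosen by the gene name printed for each probe, with the brightest probe over all 22 arrays where a gene had more than 1. Each of 11 male F344 rats, about 33 weeks old, gave a piece of oral squamous cell carcinoma (OSCC) of the tongue and a piece of adjacent, phenotypically normal tongue. All had drunk water with 20 ppm of the carcinogen 4-nitroquinoline-1-oxide (4-NQO) for 10 weeks and were harvested 23 to 26 weeks after the first exposure. The normal pieces therefore came from carcinogen-exposed tongues, although the sample labels give them no treatment and carry the word untreated on all 22 arrays.

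Toll-like receptors recognize molecules of microbes and of damaged cells. Tlr2 and Tlr4 sit at the cell surface, where Tlr2 binds bacterial lipoproteins and Tlr4 binds lipopolysaccharide that Cd14 hands over, whereas Tlr3, Tlr7 and Tlr9 sit in endosomes and bind double-stranded RNA, single-stranded RNA and unmethylated CpG DNA. All of these receptors but Tlr3 signal through Myd88 to NF-kB. The inflammasome is a cytosolic complex in which the sensor Nlrp3 recruits the adaptor protein encoded by Pycard and, through it, caspase-1, which matures interleukin-1 beta and interleukin-18. In barrier tissue the receptors are made by epithelial cells and, more abundantly for most of them, by macrophages, dendritic cells and neutrophils.

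RNA of each piece was measured on a 1-color microarray, and expression is given here as log2 signal relative to the 75th percentile of the same array, so that 0 equals that percentile. That percentile lay between 236.8 and 654.9 signal units on normal arrays and between 338.7 and 1414 on OSCC arrays, and between 48.42% and 65.49% of probes were well above background. A difference is the mean log2 change within the pairs, OSCC minus normal, tested with limma over all 30367 probes, and a gene is called where the adjusted p is below 0.05 and OSCC and normal differ 2-fold or more. The median difference of all probes was -0.24, and it ranged from -0.44 to -0.03 under other scalings. No slide held both tissues (3 slides for normal, 4 for OSCC), and 9 OSCC arrays were scanned on another day than the rest, so slide and tissue cannot be told apart. Skeletal muscle and stratified epithelium markers, 6 of 6 in each list, were well above background on all 22 arrays of this tongue tissue. Precision is limited by how many arrays there were.

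The signal of a gene is that of its 60-base probe, and 5 probes are shown. They represent the receptor with the largest mean difference, an endosomal receptor that rose and the receptor that was lower. They also represent the sensor that rose from background and the inflammasome adaptor, which was not called. On the rat assembly rn4 these probes match chr2:175608160-175608217 (- strand), chrX:47356167-47356226 (+ strand), chr16:50126045-50126104 (+ strand), chr10:45873953-45874157 (+ strand) and chr1:187276921-187276980 (- strand) in the order printed. The stretch matched by the Nlrp3 probe is longer than the probe itself. No annotation of rn4 was used, so exons are not given. The probe of Tlr9 has no position in the array annotation.
Tlr2: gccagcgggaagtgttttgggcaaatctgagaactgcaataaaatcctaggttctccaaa
Tlr7: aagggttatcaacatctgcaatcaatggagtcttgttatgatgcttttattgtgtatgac
Tlr3: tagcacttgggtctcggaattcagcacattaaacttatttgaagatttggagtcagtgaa
Nlrp3: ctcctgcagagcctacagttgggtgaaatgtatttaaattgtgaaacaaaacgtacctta
Pycard: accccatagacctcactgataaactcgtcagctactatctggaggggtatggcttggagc

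Of the 10 genes, 6 were called higher in OSCC (Tlr2, Tlr4, Tlr7, Cd14, Nlrp3 and Casp1) and 0 lower, beside a background of 6.86% of all probes called higher and 13.8% called in either direction. Tlr3 was the exception in direction, lower in 10 of 11 pairs but by less than 2-fold. Myd88 and Pycard, the adaptors that the receptors and the sensor share, differed by 1.37-fold and 1.11-fold, and Tlr9 never exceeded background clearly. The median difference over the 10 genes was 1.29, against -0.24 over all probes. By adjusted p alone, with no fold limit, 7 genes were higher and 2 lower (Tlr3, and Tlr9 from values at background), beside 16.2% and 27.9% of all probes (44% in either direction). In pieces of tissue, fewer or more cells of a type cannot be told apart from less or more RNA per cell.

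**Figure D1:**
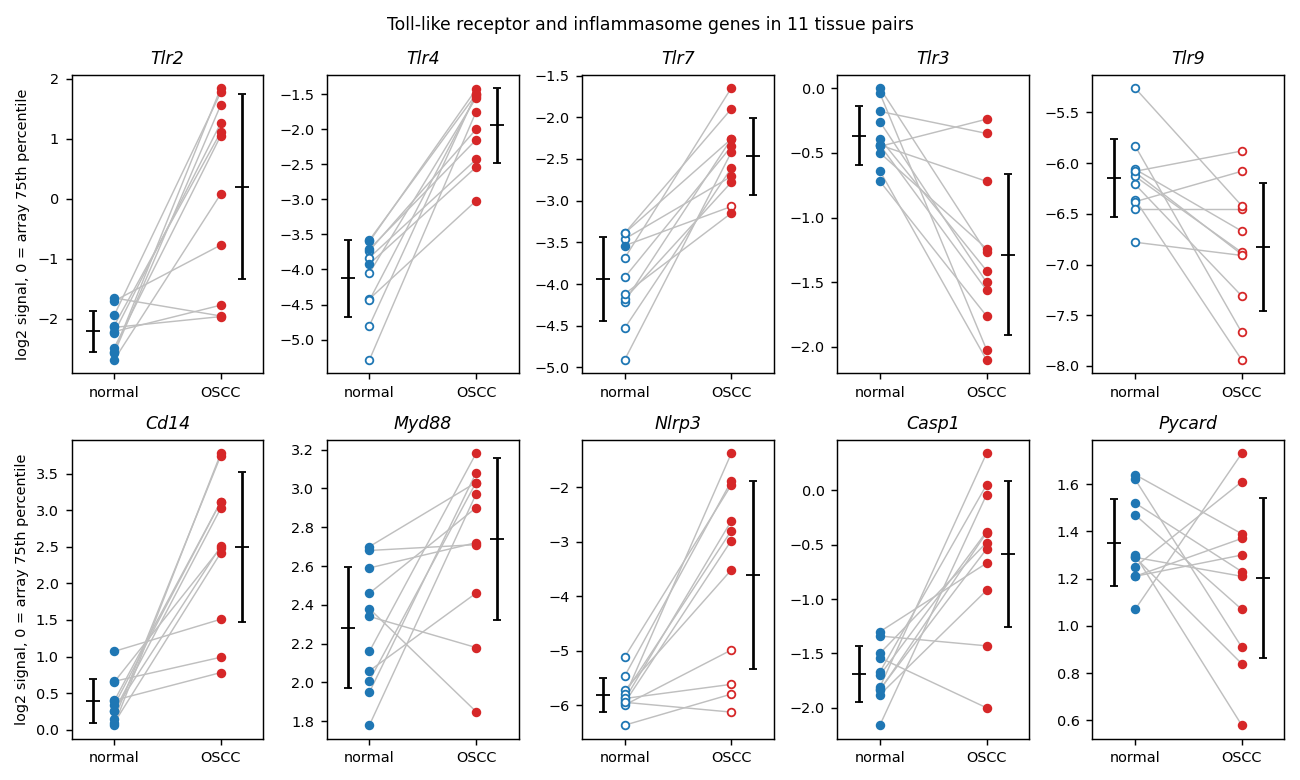
Log2 expression (y axis, 0 is the 75th percentile of the array, a separate scale for each gene) of the 10 genes in normal tissue (blue) and OSCC (red), with lines joining the 2 pieces of a rat, open points for values not well above background, and bars for mean ± SD (n = 11). Tlr4 and Tlr7, with 4 and 2 normal arrays well above background, did not overlap between the tissues. The share of all probes without overlap was not counted. The OSCC values of Tlr2 and Nlrp3 spread from the normal range to far above it.

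Among the surface receptors, Tlr2 had the largest mean difference, not separable from that of Tlr4 (exact sign-flip test over 11 rats, adjusted p = 0.56). Its log2 expression in normal tissue ran from -2.68 through a median of -2.21 to -1.65, and in OSCC from -1.96 through 1.05 to 1.84. In 8 OSCC pieces it was above every normal piece, and the other 3 lay within the normal range. The mean rose from -2.21 ± 0.35 to 0.20 ± 1.54 (SD, n = 11), a difference of 2.41 (SE 0.47) or 5.3-fold (limma, adjusted p = 0.0024), with a rise in 10 of 11 pairs.

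Tlr4 had no overlap between the tissues, a property whose share over all probes was not counted. Normal tissue ran from -5.29 through -3.92 to -3.58, with only 4 of 11 arrays well above background, and OSCC from -3.02 through -1.75 to -1.43, with all 11 above it. Every OSCC piece was above every normal piece. The difference was 2.18 (SE 0.23), or 4.52-fold (limma, adjusted p = 0.00012), and all 11 pairs rose, by between 1.38 and 3.53. With normexp background correction the difference was 0.71 and under 2-fold (limma, adjusted p = 0.023).

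Cd14, which binds lipopolysaccharide for Tlr4 and also serves Tlr2, rose 4.31-fold. Its normal values ran from 0.06 through 0.33 to 1.07 and its OSCC values from 0.78 through 2.51 to 3.78. The overlap came from OSCC pieces of animals 22 and 24, at 0.78 and 0.99, which lay below the highest normal piece. The difference was 2.11 (SE 0.34; limma, adjusted p = 0.00086), and 11 of 11 pairs were higher.

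The endosomal receptors went different ways. Tlr7 ran from -4.91 through -3.92 to -3.39 in normal tissue, with 2 arrays well above background, and from -3.15 through -2.42 to -1.65 in OSCC, with 10. The tissues did not overlap, and the share of all probes for which this holds was not counted. The difference of 1.47 (SE 0.18), or 2.77-fold, had a limma adjusted p of 0.00024 and was positive in 11 of 11 pairs. Under normexp the Tlr7 difference was 0.27 (limma, adjusted p = 0.74).

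Tlr3 was well above background on all 22 arrays. In normal tissue it ran from -0.72 through -0.44 to 0.00 and in OSCC from -2.10 through -1.41 to -0.24. In 8 OSCC pieces it was below every normal piece. The difference was -0.92 (SE 0.19), 1.89-fold lower (limma, adjusted p = 0.0029), and a second Tlr3 probe gave -0.92 (limma, adjusted p = 0.0018) and was lower in 11 of 11 pairs. The change passed 2-fold without animal 24 (-1.03) and with arrays scaled to their median (-1.12). Tlr9 stayed at background on each of the 22 arrays, with no array well above it, so no fold is given for it.

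Myd88, the adaptor downstream of the receptors, ran from 1.78 through 2.34 to 2.70 in normal tissue and from 1.85 through 2.90 to 3.18 in OSCC. Most OSCC pieces, 8 of 11, were above the highest normal piece, but the OSCC piece of animal 24 was at 1.85, among the lowest values. The difference was 0.45 (SE 0.17), or 1.37-fold, at a limma adjusted p of 0.049 and with 9 of 11 pairs higher. Leaving out 1 animal at a time moved it between 0.38 and 0.55, with adjusted p up to 0.11 in limma. The limma adjusted p was 0.25 with arrays scaled to their median, 0.35 with normexp and 0.06 with the authors' scaled values. It was 0.02 with quantile normalization and 0.027 with the 75th percentile over probes well above background on all arrays.

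Of the inflammasome genes, Nlrp3 rose from background. None of the 11 normal pieces was well above background, at -6.37 through -5.88 to -5.12, and 7 OSCC pieces were, with a range from -6.13 through -2.98 to -1.38. The OSCC pieces of animals 17, 21, 22 and 24 were the ones not above it. The difference was 2.21 (SE 0.42; limma, adjusted p = 0.002), higher in 10 of 11 pairs, and, with the normal level known only as a bound, OSCC was at least 1.22-fold higher. Normexp gave 0.61 (limma, adjusted p = 0.19).

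Casp1, the protease of the complex, ran from -2.16 through -1.70 to -1.30 in normal tissue and from -2.00 through -0.48 to 0.34 in OSCC. It was above every normal piece in 9 OSCC pieces, and those of animals 17 and 22 were not above their own normal pieces. The difference was 1.10 (SE 0.24), or 2.14-fold (limma, adjusted p = 0.0038). It lay close to the 2-fold limit and was under it without animal 11 (1.00, just under 2-fold before rounding), without animal 25 (0.99), with arrays scaled to their median (0.90) and with normexp (0.83).

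Pycard, which encodes the adaptor that links sensor and caspase, gave no call. Normal tissue ran from 1.07 through 1.29 to 1.64 and OSCC from 0.58 through 1.23 to 1.73. The difference was -0.15 (SE 0.14; limma, adjusted p = 0.40), with 4 pairs higher and 7 lower. All 22 arrays measured it well above background.

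The size of the change varied from rat to rat. The median change of the 6 called genes was between 1.96 and 3.57 in animals 4, 9, 11, 13, 16, 25 and 26, and 0.37, 0.82, 0.41 and 0.94 in animals 17, 21, 22 and 24. In the pair of animal 11 Nlrp3 changed by 4.47, Tlr2 by 4.38, Cd14 by 3.61 and Tlr4 by 3.53. In the pair of animal 22, the genes changed by -0.17, 0.44, 0.38 and 1.39. Animal 17 combined a Cd14 change of 2.25 with 0.18 for Tlr2 and -0.46 for Casp1. Tlr4 and Tlr7 were thus higher in the 4 pairs with small changes as well, at 1.38 to 1.55 for Tlr4 and 0.47 to 1.92 for Tlr7. Skeletal muscle markers moved only in part with this split, as animal 17 was nearer to the 7 rats with larger changes than to animals 21, 22 and 24. Stratified epithelium markers set only animal 24 apart. The mean change of the skeletal muscle markers was between -4.92 and -2.09 in the 7 rats with larger changes, and -1.49, 0.69, 0.05 and 0.59 in animals 17, 21, 22 and 24. The mean change of the stratified epithelium markers was -2.79 in animal 24 and between -0.55 and 0.33 in the other 10 rats. The part of tissue make-up in these changes was not tested.

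**Figure D2:**
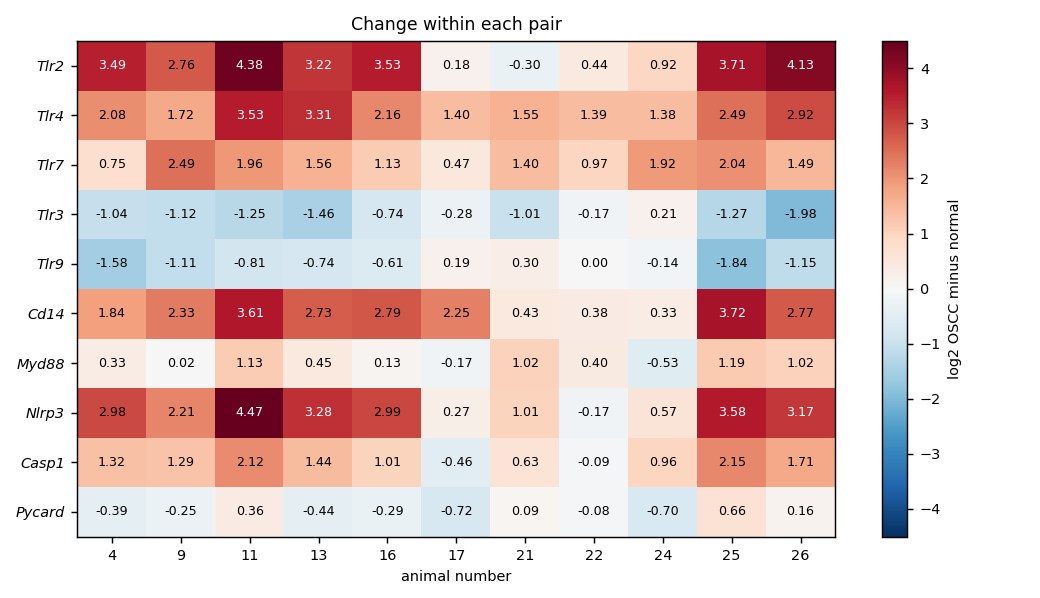
Log2 change (color and printed value, OSCC minus normal) of each of the 10 genes (rows) in each rat (columns, by animal number). Tlr2, Cd14, Nlrp3 and Casp1 were near 0 in several of the pairs of animals 17, 21, 22 and 24, where Tlr4 and Tlr7 were positive, and Tlr3 was negative in all pairs but that of animal 24.

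In the pairs of animals 4 and 9, the 2 whose pieces were scanned on 1 day, Tlr2 changed by 3.49 and 2.76, Tlr4 by 2.08 and 1.72, and Tlr7 by 0.75 and 2.49. Cd14 changed by 1.84 and 2.33, Nlrp3 by 2.98 and 2.21, and Casp1 by 1.32 and 1.29. Tlr3 changed by -1.04 and -1.12. With scan day as a further term beside the animal block, only these 2 pairs inform the tissue difference, since day and tissue changed together in all others. That limma fit called 0 of the 10 genes at an adjusted p below 0.05. Without adjustment, at p below 0.05 and 2-fold, it called 6 higher and 2 lower. Over all 30367 probes it called 1923 higher and 7655 lower in the same way. The differences were then 3.13 for Tlr2 (adjusted p = 0.088), 1.90 for Tlr4 (adjusted p = 0.085) and 2.09 for Cd14 (adjusted p = 0.10).

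Changes of 2 genes were compared within the same pairs by an exact two-sided sign-flip test, for all 45 pairs of genes, with Benjamini-Hochberg adjustment over them. Leaving aside the comparisons with Tlr9, whose values were at background, 26 of 36 had an adjusted p below 0.05. Among the 6 genes well above background on all arrays (Tlr2, Cd14, Casp1, Myd88, Pycard and Tlr3), 14 of 15 comparisons did. Tlr2 changed more than Casp1 by 1.31 ± 1.12 (SD, n = 11; exact sign-flip test, adjusted p = 0.012), in 9 of 11 rats. Myd88 exceeded Pycard by 0.60 ± 0.25, in 11 of 11 rats (exact sign-flip test, adjusted p = 0.0031). Casp1 exceeded Pycard by 1.24 ± 0.66, in 10 of 11 rats (exact sign-flip test, adjusted p = 0.0049). The comparison of Cd14 with Tlr2, at -0.30 ± 1.02, was the 1 of the 15 that did not pass (exact sign-flip test, adjusted p = 0.38). Tlr4 and its co-receptor Cd14 differed by 0.07 ± 0.82 in favor of Tlr4 (exact sign-flip test, adjusted p = 0.80), with the caveat that 7 normal Tlr4 values were not well above background.

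Over the 11 rats the changes of Nlrp3 and Tlr2 had r = 0.94, those of Casp1 and Nlrp3 r = 0.90, and those of Myd88 and Pycard r = 0.91. Tlr7 had r = 0.66 with Casp1, 0.39 with Nlrp3, 0.36 with Tlr2, 0.30 with Tlr4 and 0.26 with Cd14. Tlr3 had negative values with all called genes, from -0.29 with Tlr7 to -0.77 with Nlrp3. These are descriptions over rats that share arrays and scaling and that, for Tlr2 and Nlrp3, fell into separate groups of 4 and 7.

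Among 9561 named genes well above background on all arrays, those whose change over the 11 rats was most like that of Tlr2 were Fcgr2a (r = 0.993, difference 1.50), LOC498276 (r = 0.987, difference 2.48) and C5ar1 (r = 0.983, difference 1.68). Fcgr2a encodes an Fc receptor for IgG and C5ar1 the complement C5a receptor of myeloid cells. Nlrp3 was followed most closely by Fcer1g (r = 0.980), an Fc receptor subunit, Cd53 (r = 0.979), a leukocyte tetraspanin, and Chsy1 (r = 0.975). For Cd14 they were Cd44 (r = 0.978), a hyaluronan receptor, Cmtm7 (r = 0.976) and Ifngr1 (r = 0.974), a chain of the interferon-gamma receptor. For Casp1 they were Vcam1 (r = 0.978), an adhesion molecule for leukocytes, Plekho1 (r = 0.966) and Slit2 (r = 0.965). Tlr4 was most like Actr2 (r = 0.940), a subunit of the Arp2/3 complex, Kctd10 (r = 0.934) and Ints10 (r = 0.929), and Tlr7 most like LOC498750 (r = 0.958), Sfrp2 (r = 0.908) and Fxyd2 (r = 0.867). Cd53 is also in the pan-leukocyte marker list used below. As the highest of 9561 values, these r are high by selection, and those of Tlr2, Nlrp3, Cd14 and Casp1 also span separate groups of rats. Vcam1, Slit2, Chsy1, Kctd10, Ints10 and Sfrp2 had differences of 0.20 to 0.72 that did not pass (limma, adjusted p = 0.054 to 0.2). The rest of the named genes had an adjusted p below 0.05 in limma.

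Markers of white blood cells, and of other cell types, differed in the same OSCC pieces. The counts of calls below stand beside 6.86% of all probes called higher and 6.97% called lower. Levels of a list are given here as log2 of the summed signal of its genes, with 0 again at the 75th percentile of the array. In the macrophage and monocyte list 7 of 8 genes were called higher (Cd163 was the exception), and the summed level ran from 1.76 to 2.90 in normal tissue and from 2.33 to 4.87 in OSCC. The summed level of the pan-leukocyte list ran from 2.54 to 3.67 and from 2.57 to 5.17, with 3 of 5 called higher. Of 7 neutrophil genes 5 were called higher. Fpr1 was not called (difference 0.96, limma, adjusted p = 0.058), and Mpo was at background throughout. The summed level of the list ran from 0.08 to 2.38 and from 0.99 to 8.64. The upper end of that sum rests on S100a8 and S100a9, with OSCC maxima of 7.21 and 7.93, against 2.79 for Il1r2, the next highest. S100a8 had no value in the OSCC piece of animal 25. T cell markers were called higher for 4 of 6 genes, B and plasma cell markers for 3 of 5 and dendritic cell markers for 2 of 5. Of the dendritic cell calls, Siglech was well above background on 5 OSCC arrays and 0 normal arrays, and its lower limit was under 1. Fibroblast markers were called higher for 5 of 6 genes, with a median difference of 1.31 and a summed level higher in 10 of 11 pairs, from 5.73 to 6.56 in normal tissue and from 5.63 to 8.78 in OSCC. Skeletal muscle markers were called lower for 5 of 6 genes, and their summed level ran from 10.04 to 11.06 and from 6.22 to 11.18. Stratified epithelium had 1 of 6 called higher and 1 lower. No endothelium marker was called, and 3 of 5 were lower by adjusted p alone in limma, beside 27.9% of all probes. The part of these cells in the changes of the receptors and inflammasome genes was not tested.

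The change of each gene was set against the mean change of the macrophage and monocyte list over the rats, and against that of the pan-leukocyte list, 20 relations in all with Benjamini-Hochberg adjustment over them. Where the rats fell into separate clusters on either measure, the relation was computed within the larger cluster. On the macrophage list Tlr4 had r = 0.81 and rho = 0.83 over 11 rats (permutation p = 0.0033 and 0.003, adjusted 0.017 and 0.042), and r = 0.81 without the 2 rats farthest from the median, but with normexp r was 0.03 and rho 0.25 over the same rats. Casp1 had r = 0.91 and rho = 0.87 in its larger cluster of 9 rats (exact permutation p = 0.00064 and 0.0045, adjusted 0.012 and 0.042), and 0.87 without the farthest 2. For Casp1 normexp gave r = 0.84 and rho = 0.83 over the same rats (exact permutation, adjusted p = 0.056 and 0.17). Tlr7 had r = 0.65 and rho = 0.75 (permutation p = 0.03 and 0.011, adjusted 0.075 and 0.042) but 0.52 without the farthest 2, and with normexp the sign turned (r = -0.20, rho = -0.26). Tlr3 ran the other way, with r = -0.66 and rho = -0.75 (permutation p = 0.026 and 0.011, adjusted 0.074 and 0.042), and -0.75 without the farthest 2, while normexp gave r = -0.42 and rho = -0.27.

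Cd14, Nlrp3 and Tlr2 gave clusters of 8, 7 and 7 rats. Within these, r with the macrophage list was 0.63, 0.72 and 0.41 (exact permutation, adjusted p = 0.15, 0.12 and 0.46), so no relation was detectable there. On the pan-leukocyte list animals 17, 21, 22 and 24 stood apart, between -0.56 and 0.71, from the other 7, between 1.78 and 3.1. Within the 7, Cd14 had r = 0.92 and rho = 0.79 (exact permutation p = 0.012 and 0.048, adjusted 0.046 and 0.11) but 0.65 without the farthest 2. Pycard, which had no call, had r = 0.94 and rho = 0.93 (exact permutation p = 0.0012 and 0.0067, adjusted 0.012 and 0.042) and 0.83 without the farthest 2. For the other genes the adjusted p of r on this list was 0.074 or more (exact permutation). Within the same 7 rats, with the macrophage list, r was 0.87 for Casp1 and 0.64 for Tlr4 (exact permutation, adjusted over the 10 genes 0.098 and 0.22). It was 0.67 for Tlr7 and -0.26 for Tlr3 (exact permutation, adjusted 0.2 and 0.69), so none of these relations passed within the 7.

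**Figure D3:**
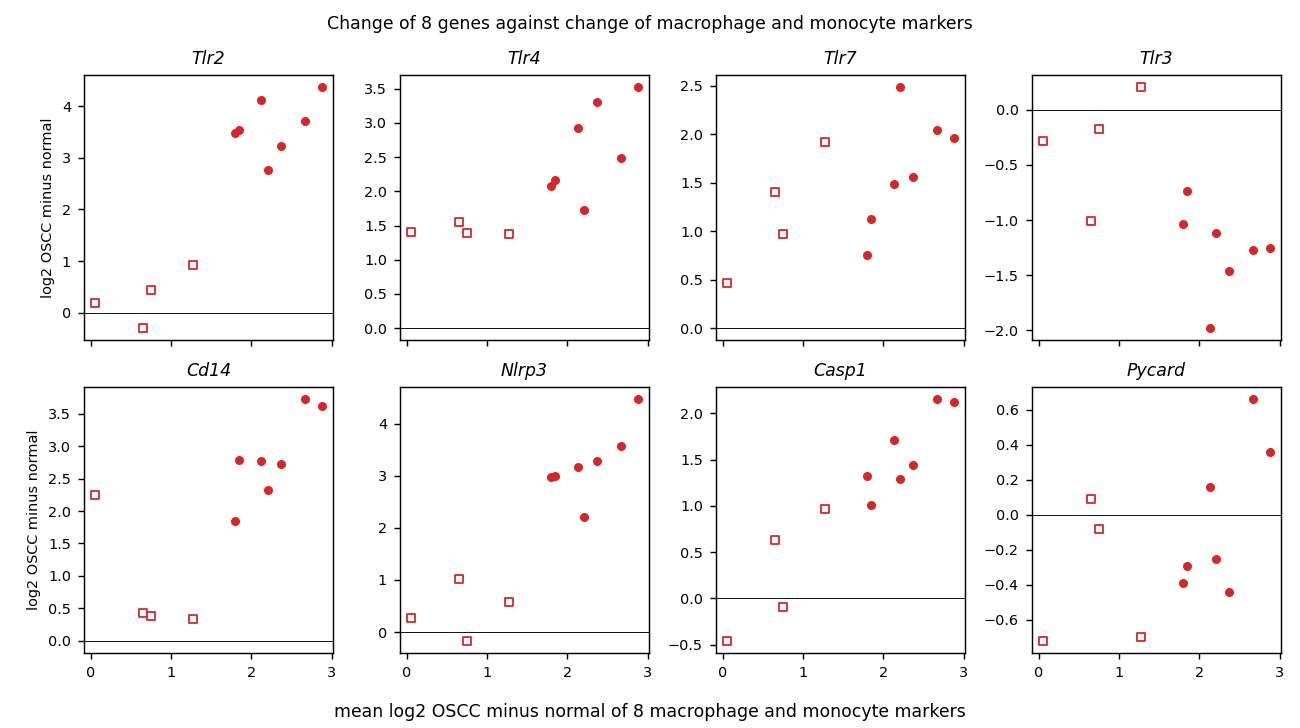
Log2 change of 8 genes (y axis, OSCC minus normal, a separate scale for each gene) against the mean log2 change of 8 macrophage and monocyte markers (x axis) in the 11 rats. Open squares are animals 17, 21, 22 and 24, and filled circles the other 7. Tlr2 and Nlrp3 form separate groups of 4 and 7 rats, and Casp1 (r = 0.91 within 9 rats) is larger where the markers rose more. Within the 7, Casp1 had r = 0.87, which did not pass (exact permutation, adjusted p = 0.098). Tlr3 runs the other way over the 11 rats (r = -0.66), with r = -0.26 within the 7.

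Of 75 other genes of the pathway listed, 67 were on the array, and 16 were called higher and 1 lower, beside the 6.86% and 6.97% of all probes. Their median difference was 0.46, against -0.24 over all probes, and 6 had no array well above background. The calls lay in the receptors and co-receptors, the cytosolic sensors, the caspases and the cytokines. With normexp 5 were called higher (Lbp, Tlr6, Mefv, Il1a and Il1b) and 1 lower (Cd36), so the calls of the other 11 depended on the background correction. On the brightest probes, no call was made among 13 signaling kinases and ligases, 6 transcription factors, 6 inhibitors or 2 adaptors. The adaptors were hardly measured, with Sarm1 well above background on no array and Ticam2 on 2 OSCC arrays only.

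Of the partners of the receptors, Tlr6, Ly96, Lbp and Tlr8 were called higher and Cd36 lower. Tlr6, which pairs with Tlr2, rose from -2.04 ± 0.21 to -0.55 ± 0.84 (SD, n = 11), a difference of 1.50 (limma, adjusted p = 0.0015), in 11 of 11 pairs. Ly96, which encodes the lipopolysaccharide-binding subunit of the Tlr4 complex, rose by 1.39 (limma, adjusted p = 0.00046), also in 11 of 11 pairs. Lbp, the serum protein that delivers lipopolysaccharide to Cd14, rose by 2.40, from -1.50 ± 0.31 to 0.91 ± 1.06 (limma, adjusted p = 5e-04). Cd36, a lipid scavenger receptor that assists Tlr2, was the lower one, from 3.74 ± 0.52 to 2.23 ± 1.54, a difference of -1.51 (limma, adjusted p = 0.014), in 9 of 11 pairs. Tlr8, an endosomal receptor related to Tlr7, was not well above background in normal tissue and was at least 2.63-fold higher in OSCC (limma, adjusted p = 0.00037). Unc93b1, which carries the endosomal receptors to their compartment, had a difference of 0.95 (limma, adjusted p = 0.006), or 1.94-fold.

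Of 11 other genes of cytosolic sensing, 5 were called higher and 0 lower, beside 6.86% of all probes called higher. Aim2, which binds cytosolic DNA, was at least 1.56-fold higher, Nlrc4, which responds to bacterial flagellin through its Naip partners, at least 1.73-fold, and Nlrp12 at least 1.29-fold, all 3 with no normal array well above background (limma, adjusted p = 0.00073, 0.00083 and 0.0023). Mefv, which encodes pyrin, had a difference of 2.29 and exceeded background clearly on 5 normal arrays and 8 OSCC arrays (limma, adjusted p = 0.011). Nod2, a sensor of bacterial peptidoglycan, had a difference of 1.76 (limma, adjusted p = 0.0035). Nod1 was not called, with -0.57 on its brightest probe (limma, adjusted p = 0.0013), lower in 11 of 11 pairs, and -0.10 on another. Ripk2 was not called either, at -0.35 (limma, adjusted p = 0.086). Nlrp1, Nlrp6, Nlrp10 and the probe named Naip5 on the array (listed here as Naip6) had no array well above background.

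Downstream, 3 caspases besides Casp1 were called higher: Casp8 by 1.34, Casp12 by 1.30 and Casp4, the sensor of intracellular lipopolysaccharide, by 1.07 (limma, adjusted p = 0.00021, 0.00021 and 0.0034). Gsdmd, whose product forms the pore of pyroptosis, had a difference of 0.85, under 2-fold (limma, adjusted p = 0.014). Nek7, a kinase that binds the Nlrp3 protein, had -0.24 on its brightest probe and 0.72 on another, so its direction depended on the probe. Il1b and Il18 encode the substrates of caspase-1. Il1b ran from -2.55 ± 0.97 to 1.61 ± 2.30 (SD, n = 11), a difference of 4.17 (SE 0.73) or 17.9-fold (limma, adjusted p = 0.0013), and Il18 had 0.99, or 1.99-fold (limma, adjusted p = 0.024). Il1a and Tnf, also called, had differences of 3.07 and 2.11 (limma, adjusted p = 0.002 and 0.0082). Il6 passed the call as well (limma, adjusted p = 0.033), but it was well above background on 4 OSCC arrays and no normal array and its lower limit was under 1, so no fold is given.

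No transcription factor reached 2-fold on its brightest probe. Nfkb1 and Nfkb2 had differences of 0.75 and 0.88 (limma, adjusted p = 0.0051 and 0.0021) and Irf3, a factor downstream of Tlr3, had -0.48 (limma, adjusted p = 0.01), each under 2-fold. For Cnpy3, Rela and Tollip a second probe was called higher, at 1.06, 1.02 and 1.68, where the brightest gave 0.28, 0.05 and -0.03, and those genes are uncertain.

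**Figure D4:**
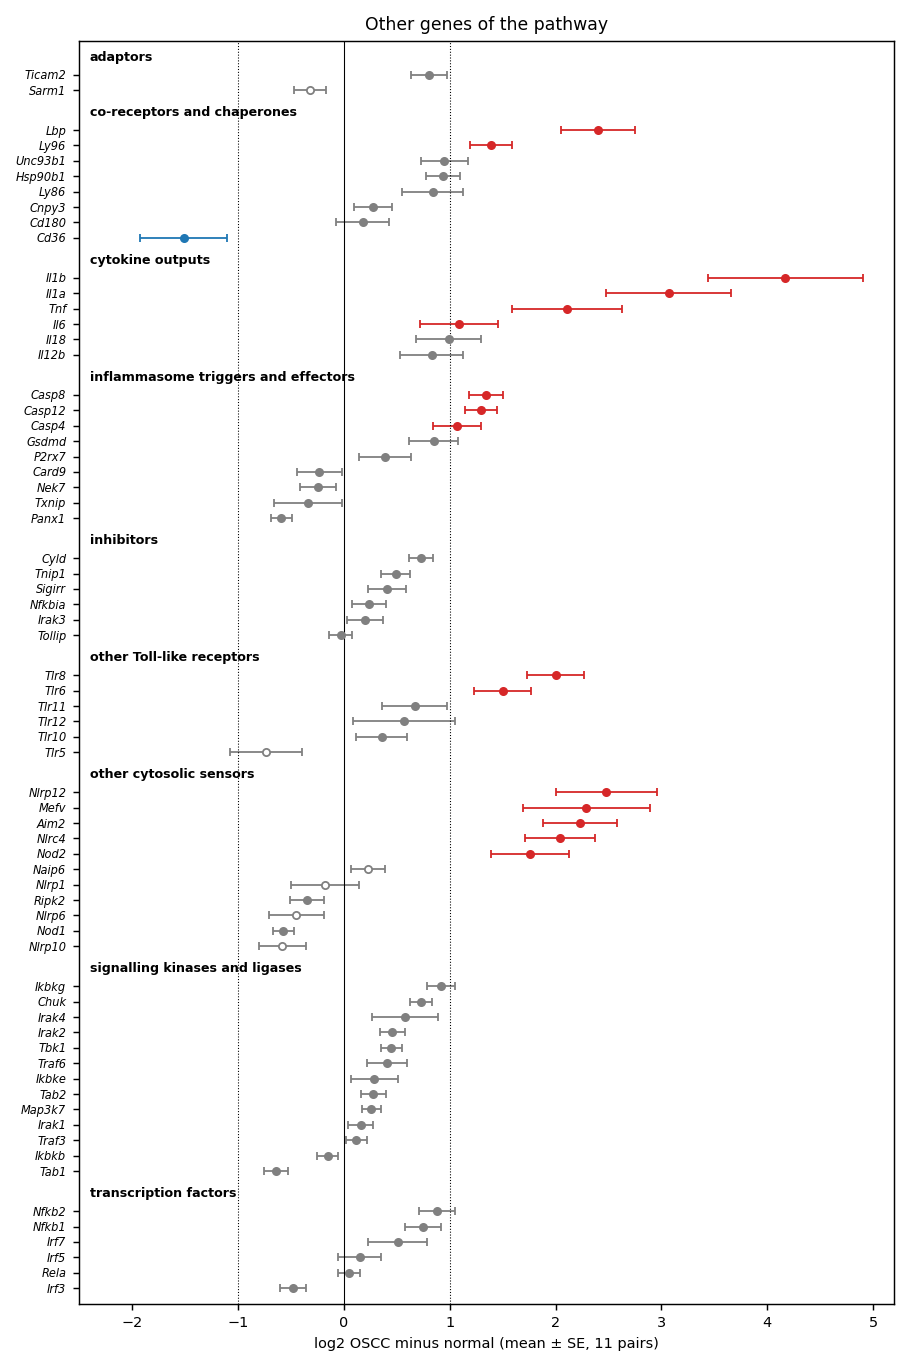
Log2 difference (x axis, OSCC minus normal, mean ± SE, 11 pairs) of 67 other genes of the Toll-like receptor and inflammasome pathway, grouped by role. Red and blue points were called higher and lower, gray points were not called, open points had no array well above background, and dotted lines mark 2-fold. Il1b had the largest difference, 4.17. No kinase, transcription factor, inhibitor or adaptor was called on its brightest probe, and the adaptors were near background.

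The 250 bases before each RefSeq gene start on assembly GRCr8 were searched on both strands for 3 short motifs. GAGGAA, a core bound by the myeloid factor PU.1, was found in 7 of 10 genes (Cd14, Casp1, Nlrp3, Tlr3, Tlr4, Tlr7 and Tlr9) and in 23.2% of 27456 such stretches in all. The matches thus include Tlr3, which was lower, and leave out Tlr2, which had the largest difference. The core of interferon-stimulated response elements, GAAA followed after any 2 bases by GAAA, was found in 2 of 10 (Myd88 and Casp1) and in 3.29% of all. The NF-kB consensus was found only in Tlr2, at 3 positions, of which 2 overlap, and in 6.42% of all. Capitals below mark GAGGAA, or its reverse complement, and in Tlr2 the NF-kB consensus. The 5 stretches are chr5:85160997-85161246 (+ strand), chrX:30644176-30644425 (+ strand), chr10:44827848-44828097 (+ strand), chr2:171504558-171504807 (- strand) and chr16:53554666-53554915 (+ strand), in the order printed, and a match of letters says nothing of binding.
Tlr4: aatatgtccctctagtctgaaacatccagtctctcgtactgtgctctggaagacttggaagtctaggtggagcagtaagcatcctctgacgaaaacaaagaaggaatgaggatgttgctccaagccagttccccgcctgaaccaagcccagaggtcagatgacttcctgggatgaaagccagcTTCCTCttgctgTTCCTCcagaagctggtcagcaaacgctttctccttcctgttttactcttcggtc
Tlr7: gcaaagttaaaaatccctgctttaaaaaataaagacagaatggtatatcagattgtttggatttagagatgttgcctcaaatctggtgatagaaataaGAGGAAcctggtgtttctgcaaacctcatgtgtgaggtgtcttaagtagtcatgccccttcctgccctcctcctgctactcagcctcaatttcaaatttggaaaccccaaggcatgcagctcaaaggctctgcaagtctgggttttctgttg
Nlrp3: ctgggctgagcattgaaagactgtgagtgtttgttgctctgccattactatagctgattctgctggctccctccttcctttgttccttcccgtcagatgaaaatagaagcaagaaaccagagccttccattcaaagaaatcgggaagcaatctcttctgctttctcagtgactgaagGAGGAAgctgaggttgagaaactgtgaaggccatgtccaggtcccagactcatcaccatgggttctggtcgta
Tlr2: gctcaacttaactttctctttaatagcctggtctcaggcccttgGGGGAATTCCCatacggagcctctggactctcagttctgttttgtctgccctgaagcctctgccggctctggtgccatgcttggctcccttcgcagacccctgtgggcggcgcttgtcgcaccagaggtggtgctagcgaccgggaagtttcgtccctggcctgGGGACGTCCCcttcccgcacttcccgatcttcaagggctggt
Tlr3: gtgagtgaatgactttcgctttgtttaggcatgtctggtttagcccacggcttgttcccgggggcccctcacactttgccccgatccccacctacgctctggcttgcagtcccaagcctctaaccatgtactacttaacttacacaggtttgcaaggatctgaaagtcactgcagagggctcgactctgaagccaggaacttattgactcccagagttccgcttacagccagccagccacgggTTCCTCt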

How the data were processed

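The arrays were 22 Agilent 1-color rat arrays. The authors scanned them with Feature Extraction 9.5.3.1 (per the file headers), which subtracted background, and deposited the processed intensity of each spot in linear units. They also deposited a value table, the ratio of that signal to the array's 75th percentile, used here as an alternative. Control spots and 9196 outlier spots (0.975%) were left out, each probe's spots were averaged as log2 signal, from which the 75th percentile of the array was taken away. OSCC and normal tissue were compared in limma 3.58.1 (R 4.3.3) with animal as block and Benjamini-Hochberg adjustment over 30367 probes, and the code was tested on simulated data. The pairing comes from 1 rat giving both tissues. The correlation of their deviations was between -0.21 and 0.24 (median -0.02). For a gene with no normal array well above background, the fold is OSCC against, per array, the higher of the lowest signal well above background and the gene's own. Sign-flip tests, and correlations with 100000 permutations, used numpy 2.4.6 and scipy 1.17.1. A gap over 25% of the range on either axis was taken as separate clusters, a limit set after the values were seen. Genes and lists were chosen with earlier results of these data known. The named genes were all 10 genes, called pathway genes, direct partners, and the 3 most alike genes of each called one. Alternatives were scaling, background correction, dim probes, pairing, scan day, slide, the methods' t-test, probe choice and leaving out animals.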

Additional observations from a re-analysis of the deposited data

How the results depend on the processing

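No direction of the 10 genes was reversed by any alternative run. Without the animal block limma called 4227 probes, 6 of the 10 genes and 17 pathway genes, against 4201, 6 and 17 with the replicate pairing. Leaving out 1 animal at a time gave 3649 to 4799 probes, 5 to 7 of the 10 genes and 15 to 21 pathway genes. Normexp gave 1701 probes, 2 of the 10 genes (Tlr2 and Cd14) and 6 pathway genes, and the cause was not tested. With scan day as a term the counts were 3 probes, 0 of the 10 genes and 0 pathway genes. Without adjustment, at p below 0.05 and 2-fold, 19 of 67 pathway genes were higher and 2 lower. Of all 30367 probes 1923 were then higher and 7655 lower. With 9 of 11 pairs split by day, the tissue differences of this fit come from the other 2 pairs alone. Without animals 21, 22 and 24, 6924 probes were called. The 2 pairs scanned within 1 day gave 13265 probes and 29 pathway genes, from 1 shared spread (SE 0.42 for every probe), so these calls carry little weight. Scaling to the array median changed the calls among the 10 genes to 5 higher and 1 lower, and 32.8% of called probes were then higher, against 49.6%. Of 20 relations with marker lists 5 had an adjusted p below 0.05 for r (1 of them with Tlr9, whose values were at background), against 0 with normexp, 3 with quantile normalization and 15 with all 11 animals in every relation, an alternative chosen after seeing the data that ignores the clusters, and the cause of the first 2 was not tested. Dim signal limits Tlr4, Tlr7 and Nlrp3 in normal tissue, and Tlr9 in both tissues.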
